A study of Arabidopsis thaliana with 6 samples.

Results

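Glucosinolates are the sulfur-rich defence compounds of Arabidopsis and its relatives, and the 37 genes described here make, modify and move them. The members are a list of loci for regulators, enzymes and transporters of the aliphatic and indole pathways, and all 37 were found among the 27416 loci of the deposited tables. They comprise 20 aliphatic genes, 10 indole genes and 7 genes that serve both branches, and together they took 0.284% to 0.412% of the reads of a library. RNA was taken from vegetative tissue at 21 days, from Columbia plants of Arabidopsis thaliana kept on MS medium with no added treatment. The groups were 3 wild-type libraries and 3 libraries labelled as the ucp1 ucp3 double mutant, which carries mutations in genes for mitochondrial uncoupling proteins. The sources do not state the alleles or how many plants made up a library. Nothing beyond the word "biological" says how replicates were separated, so p-values measure the spread between these libraries, which may be technical.

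Aliphatic glucosinolates are built from methionine and indole glucosinolates from tryptophan. A methionine side chain is first lengthened in a cycle of transaminase, condensing, isomerising and dehydrogenating enzymes, mostly in the plastid. In both branches cytochrome P450 enzymes of the CYP79 family then turn the amino acid into an aldoxime, CYP83 enzymes oxidise it, and a C-S lyase, glucosyltransferases and sulfotransferases finish the core. Side-chain enzymes alter the finished molecule, GTR1 and GTR2 carry it between cells, and R2R3 MYB transcription factors switch on the genes of each branch.

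Sequencing depth spanned 9.54-fold, from 1183612 gene-assigned reads in ucp1 ucp3 replicate 3 to 11296137 in ucp1 ucp3 replicate 2. The shallowest library stood off on the leading principal component of log2 CPM (CPM being reads of a gene scaled to a common library total, with TMM factors), at 59.3 where the rest ran from -28.8 to 9.42. Transcripts of UCP1 and UCP3 were found in all 6 libraries. UCP1 had 67.3 to 75.3 CPM in the wild-type set and 46.6 to 67.2 CPM in mutant-labelled libraries (log2 fold change -0.35, edgeR adjusted p = 0.226), and UCP3 had 12.3 to 16.1 against 8.68 to 10.8 CPM (-0.49, edgeR adjusted p = 0.224). These levels do not check the genotype, so the libraries are named by their label only. Leaf markers were abundant (summed level of 5 genes 28624 to 42171 CPM). They summed higher in each library labelled ucp1 ucp3 (33173 to 42171 CPM) than in any wild-type library (28624 to 30727 CPM). That sum leaned on LHCB1.3, with means of 11048 CPM in wild-type and 18253 CPM in mutant-labelled libraries, while RBCS1A had 11909 and 12142 CPM. RBCS1A, GLDP1, RCA and LHCB2.1 did not pass (log2 fold changes 0.03, -0.08, 0.30 and 0.47). LHCB1.3, a light-harvesting protein gene, shares 32.1% of the 31-base words of its mRNA with other loci, and LHCB2.1 shares 31.2%. LHCB1.3 passed the test (log2 fold change 0.72, edgeR adjusted p = 0.032). That call was lost in 5 of the 14 alternatives, the adjusted p being 0.131, 0.098 and 0.0713 without wild-type replicates 1, 2 and 3, and 0.14 and 0.0608 without ucp1 ucp3 replicates 1 and 3. The 8 root markers were all detected, 5 flower markers summed to 15.1 to 19.9 CPM and 2 phloem markers to 124 to 167 CPM. Of the seed storage genes, CRU3 and SESA1 were at 0 reads everywhere. The part of these markers in the results was not tested. In bulk tissue, fewer cells of a type and less RNA per cell cannot be told apart.

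Of the 37 genes, 35 passed the expression filter and 1 was called at an adjusted p under 0.05 in edgeR's quasi-likelihood test. That gene was CYP79B3, of the indole branch, which rose, while 0 members fell and 34 did not pass. Among all 17415 genes tested, 1.26% were called, 0.781% higher and 0.482% lower. The median log2 fold change of the 35 members was 0.03, beside -0.00237 for all tested genes. Log2 fold changes ran from -0.60 for MYB28 to 0.83 for CYP79B3. Among the 35 tested members, the groups did not overlap in 1 that was higher and 3 that were lower in mutant-labelled libraries, where 11.2% and 12.4% of all tested genes did so (23.6% in either direction).

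**Figure D1:**
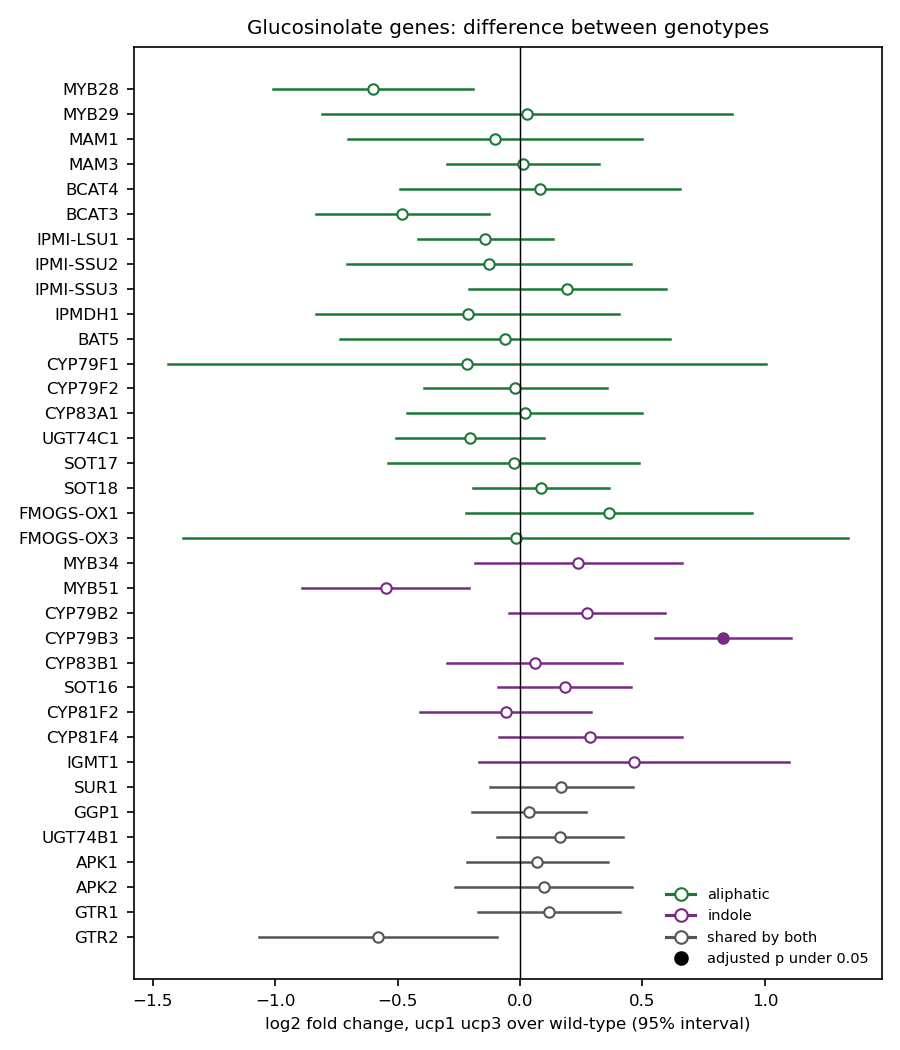
Log2 fold change of the 35 tested glucosinolate genes, ucp1 ucp3 over wild-type, with 95% intervals from the edgeR fit (3 libraries per group). Colours give the branch, and the single filled point is CYP79B3 at 0.83, the one gene past the threshold.

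CYP79B3 and CYP79B2 encode the enzymes that convert tryptophan to indole-3-acetaldoxime, the step that opens indole glucosinolate synthesis and also feeds camalexin. Over the aligned coding sequence the pair was 80.5% identical, and 0.09% of the 31-base words of each mRNA occur in the other. The aliphatic counterparts CYP79F1 and CYP79F2, neighbours on chromosome 1, were 91.9% identical, and 4.66% and 7.65% of their 31-base words occur in another gene. The sequences below show for each pair the 5' most ungapped stretch of 90 aligned coding bases (RefSeq, TAIR10.1 annotation, coding strand), with the bases that differ within the pair in capitals.
CYP79B2: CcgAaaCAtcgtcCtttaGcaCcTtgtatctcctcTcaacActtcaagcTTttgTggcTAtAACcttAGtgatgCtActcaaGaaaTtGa
CYP79B3: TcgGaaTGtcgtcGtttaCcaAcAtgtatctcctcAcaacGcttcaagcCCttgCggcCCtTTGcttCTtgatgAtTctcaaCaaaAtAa
CYP79F1: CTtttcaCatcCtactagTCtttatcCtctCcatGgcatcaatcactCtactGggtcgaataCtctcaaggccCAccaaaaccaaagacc
CYP79F2: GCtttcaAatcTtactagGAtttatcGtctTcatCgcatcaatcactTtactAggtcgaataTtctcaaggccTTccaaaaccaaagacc
In these windows CYP79B2 and CYP79B3 differed at 25 positions and CYP79F1 and CYP79F2 at 14. CYP79B2 lies on chromosome 4 and CYP79B3 on chromosome 2.

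CYP79B3 (AT2G22330) stood at 36.6, 36.6 and 47.6 CPM in wild-type replicates 1 to 3 and at 68.5, 72.9 and 74.0 CPM in mutant-labelled libraries, from 82 to 829 reads per library. Every mutant-labelled library lay above every wild-type library. The means were 40.3 ± 6.38 and 71.8 ± 2.89 CPM (SD, n = 3), a 1.78-fold rise with a 95% interval of 1.46 to 2.15 (log2 fold change 0.83 ± 0.13 SE, edgeR adjusted p = 0.00731). The call was lost without wild-type replicate 1 (log2 fold change 0.77, edgeR adjusted p = 0.0595) and kept in the other 13 alternatives. Over all 14 alternatives the log2 fold changes ran from 0.766 to 0.966.

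Its duplicate CYP79B2 (AT4G39950) had 50.4, 61.5 and 76.5 CPM in the wild-type set and 83.4, 68.2 and 77.6 CPM in mutant-labelled libraries. The groups overlapped through wild-type replicate 3. The log2 fold change was 0.28 with an interval of -0.04 to 0.59 (edgeR adjusted p = 0.389), which spans both no difference and a 1.51-fold rise. Whether the pair differed in response was not tested. Per transcript length, the deposited TPM values put CYP79B3 at 25.5 ± 3.65 TPM in the wild-type set and 42.8 ± 3.13 TPM in mutant-labelled libraries, and CYP79B2 at 37.5 ± 7.45 and 42.8 ± 2.495 TPM (SD, n = 3). CYP79B3 was thus the lower of the pair in the wild-type means, and the mutant-labelled libraries had the pair at about the same level.

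The other indole core genes, CYP83B1 and SOT16, had estimates above 0 and did not pass. CYP83B1, which oxidises indole-3-acetaldoxime, had 365, 385 and 567 CPM in the wild-type set and 523, 407 and 441 CPM in mutant-labelled libraries (log2 fold change 0.06, edgeR adjusted p = 0.917). It was the most abundant member per length, at 302 ± 72.2 TPM in wild-type. SOT16, the sulfotransferase of indole desulfoglucosinolates, had 87.2 ± 12.4 and 99.3 ± 7.94 CPM (SD, n = 3) and a log2 fold change of 0.18 (interval -0.09 to 0.45). The interval of CYP83B1 ran from 0.813-fold to 1.33-fold.

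Of the 3 genes whose enzymes decorate the indole ring, 0 passed. CYP81F4, which hydroxylates the ring on the way to 1-methoxy-indole glucosinolate, had 144, 174 and 98.5 CPM in the wild-type set and 177, 171 and 157 CPM in mutant-labelled libraries (log2 fold change 0.29, edgeR adjusted p = 0.446). On the opposite strand, AT4G37409 covers 86.4% of its 31-base words, and because the strand setting of the quantification is not given, the assignment is uncertain, although AT4G37409 is listed at 0 reads in all 6 libraries. IGMT1, a methyltransferase of indole glucosinolates, had 58.1, 65.7 and 30.4 CPM against 78.8, 59.6 and 78.5 CPM (log2 fold change 0.47, edgeR adjusted p = 0.457), and 23.8% of its 31-base words are shared with close copies. In both genes wild-type replicate 3 was the lowest library. CYP81F2, whose product hydroxylates the ring at another position and is known from pathogen-induced callose defence, had 50.5 ± 12.0 and 48.3 ± 4.62 CPM (SD, n = 3), a log2 fold change of -0.06.

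Among the indole regulators, MYB51 (HIG1) lay lower in every mutant-labelled library than in any wild-type library. It had 34.0, 43.8 and 46.3 CPM in the wild-type set and 23.3, 30.3 and 32.5 CPM in mutant-labelled libraries, a log2 fold change of -0.55 ± 0.16 (SE) that did not pass over all genes (edgeR adjusted p = 0.0986). MYB34 (ATR1) had 11.5, 16.6 and 12.3 CPM against 15.5, 17.3 and 10.8 CPM (0.24, edgeR adjusted p = 0.605), and its groups overlapped. MYB122 had 0 to 3 reads in any library, at or under the detection floor of 3 reads, and was not tested.

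**Figure D2:**
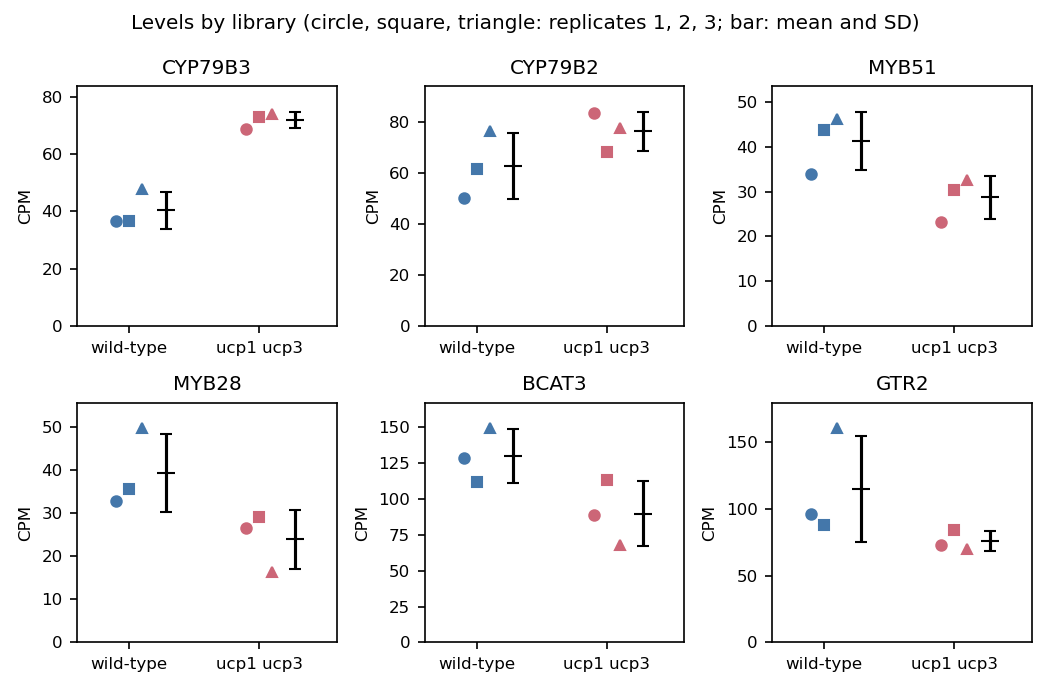
Levels of 6 glucosinolate genes in CPM by library, with circles, squares and triangles for replicates 1 to 3 and bars for the mean ± SD of each group. CYP79B3 is separate and higher in mutant-labelled libraries, MYB51, MYB28 and GTR2 are separate and lower without passing the test, and CYP79B2 and BCAT3 overlap.

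Of the aliphatic branch, 19 of 20 genes were tested and 0 were called in either direction. Of these, 0 were higher and 2 lower at an unadjusted p under 0.05, MYB28 and BCAT3, where 8.04% and 8.37% of all tested genes were. DESeq2 also called 0 members lower and 1, CYP79B3, higher. The aliphatic median log2 fold change was -0.03 with 7 estimates above 0 and 12 below, beside a median of 0.24 for the 9 tested indole genes, of which 7 were above 0, and of 0.10 for the 7 shared genes. No test was made of these medians. Of all tested genes, 49.7% had estimates above 0.

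Of the aliphatic regulators, MYB28 (HAG1), the main activator of methionine-derived glucosinolates, had 32.8, 35.7 and 49.7 CPM in the wild-type set and 26.5, 29.0 and 16.2 CPM in mutant-labelled libraries. The groups were apart, and the lowest value came from 18 reads in ucp1 ucp3 replicate 3. The log2 fold change was -0.60 ± 0.19 (SE; edgeR adjusted p = 0.132), and it lay between -0.751 and -0.392 in all 14 alternatives without a call. MYB29 (HAG3), the second activator of the branch, had 4.71, 4.16 and 10.7 CPM in the wild-type set and 3.88, 8.35 and 7.22 CPM in mutant-labelled libraries, from 8 to 95 reads, with a log2 fold change of 0.03 and an interval of -0.81 to 0.87 that holds a 1.5-fold difference either way. MYB76 had 1 to 15 reads per library, at 0.554 to 0.697 CPM in the wild-type set and 0.903 to 1.32 CPM in mutant-labelled libraries, and did not reach the filter. Its groups were apart, on values at or near the floor of 3 reads in 5 of the 6 libraries. Of the 2 transcript models of MYB28, AT5G61420.2 was the larger in every library, taking 61.3% to 83.1% of its estimated reads in the wild-type set and 75.6% to 84.4% in mutant-labelled libraries.

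The 9 chain elongation genes had a median log2 fold change of -0.10, and 0 passed. Of their estimates 3 were above 0, where 49.7% of all tested genes were. BCAT3, a plastid aminotransferase of methionine chain elongation that also serves branched-chain amino acid synthesis, had the smallest p, with 128, 112 and 149 CPM in the wild-type set and 88.7, 113 and 67.7 CPM in mutant-labelled libraries (log2 fold change -0.48, edgeR adjusted p = 0.162). It was called lower without ucp1 ucp3 replicate 2, at -0.70 (edgeR adjusted p = 0.0344), and in none of the other 13 alternatives, where its values lay between -0.577 and -0.352. BCAT4, the cytosolic aminotransferase that starts elongation, had 109, 129 and 201 CPM against 140, 190 and 125 CPM (0.08). Both aminotransferase groups overlapped, and 19.5% of the 31-base words of BCAT4 lie opposite AT3G19700, which is listed at 0 reads.

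MAM1 and MAM3 encode the methylthioalkylmalate synthases that set chain length. MAM1 had 169, 179 and 306 CPM in the wild-type set and 189, 248 and 164 CPM in mutant-labelled libraries (log2 fold change -0.10, interval -0.70 to 0.50). MAM3 had 94.98, 107 and 126 CPM against 119, 121 and 82.1 CPM (0.01, interval -0.30 to 0.32). In both genes the mutant-labelled libraries lay within or just below the range of wild-type. Of the isopropylmalate isomerase subunits, the large one, IPMI-LSU1, had 318, 321 and 388 CPM against 295, 357 and 273 CPM (-0.14), and the small subunit genes IPMI-SSU2 and IPMI-SSU3 had log2 fold changes of -0.13 and 0.19.

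IPMDH1, the dehydrogenase of the cycle, had 172 ± 52.7 and 144 ± 41.5 CPM (SD, n = 3; log2 fold change -0.21), with 15.2% of its 31-base words shared with AT1G31180. BAT5, the plastid transporter of elongation intermediates, had 28.9 ± 12.2 and 25.8 ± 6.96 CPM (-0.06). The division of reads between transcript models varied between replicates in both genes. AT5G14200.2 took 0.0% to 15.2% of IPMDH1 reads in the wild-type set and 63.1%, 7.68% and 32.2% in ucp1 ucp3 replicates 1 to 3, and AT4G12030.1 took at most 6.51% of BAT5 reads in wild-type against 54.9%, 22.4% and 0.0% in ucp1 ucp3 replicates 1 to 3. Such shares rest on how the authors' program divided overlapping models and were not tested.

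In the aliphatic core, 6 genes gave 0 calls and a median log2 fold change of -0.02. CYP79F1, which acts on short- and long-chain methionine derivatives, had 54.7, 54.3 and 132 CPM in the wild-type set and 51.9, 88.5 and 61.4 CPM in mutant-labelled libraries (log2 fold change -0.22, interval -1.44 to 1.00, edgeR adjusted p = 0.885). CYP79F2, which acts on the long-chain ones, was tighter, with 38.7, 33.2 and 45.3 CPM against 42.7, 41.8 and 23.5 CPM (log2 fold change -0.02, interval -0.39 to 0.35). A difference of 2-fold lay within the interval of CYP79F1 and outside that of CYP79F2. CYP83A1, the oxidising P450 of the branch, had 139 ± 44.4 and 140 ± 22.3 CPM (SD, n = 3; 0.02).

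UGT74C1, the glucosyltransferase of the branch, had 64.3, 70.4 and 82.97 CPM in the wild-type set and 51.6, 69.6 and 68.6 CPM in mutant-labelled libraries (log2 fold change -0.20, edgeR adjusted p = 0.514). For UGT74C1, 15.2% of the 31-base words lie opposite another annotated locus. Neither aliphatic sulfotransferase gene passed. SOT18 had 46.5, 44.9 and 57.6 CPM against 49.4, 54.9 and 54.2 CPM (0.08, interval -0.19 to 0.36), and SOT17 had 21.9, 20.5 and 35.8 CPM against 19.9, 30.9 and 23.5 CPM (-0.03, interval -0.54 to 0.49). The S-oxygenase genes of the side chain were low and scattered, FMOGS-OX1 at 8.60, 9.42 and 16.5 CPM against 10.5, 17.7 and 15.3 CPM (0.36) and FMOGS-OX3 at 10.03, 11.4 and 30.2 CPM against 9.82, 21.3 and 19.9 CPM (-0.02). Their intervals, -0.22 to 0.95 and -1.37 to 1.34 on the log2 scale, do not exclude a 1.5-fold difference.

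Wild-type replicate 3 was the highest of the 6 libraries for 18 of the 19 tested aliphatic genes, FMOGS-OX1 being the exception, and for 2 of 9 indole genes, MYB51 and CYP83B1. It was the lowest for 3 indole genes, CYP81F2, CYP81F4 and IGMT1. Replicate 3 of ucp1 ucp3 was the lowest for 9 aliphatic genes and for 1 indole gene. Summed over the branch, aliphatic transcripts reached 1465, 1483 and 2232 CPM in the wild-type set and 1495, 1881 and 1331 CPM in mutant-labelled libraries, while indole transcripts reached 828, 929 and 1017 CPM against 1119.8, 969.6 and 1023 CPM. The median within-group SD on the log2 scale was 0.431 in the wild-type set and 0.369 in mutant-labelled libraries for aliphatic genes, 0.299 and 0.146 for indole genes, and 0.166 and 0.216 over all tested genes.

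**Figure D3:**
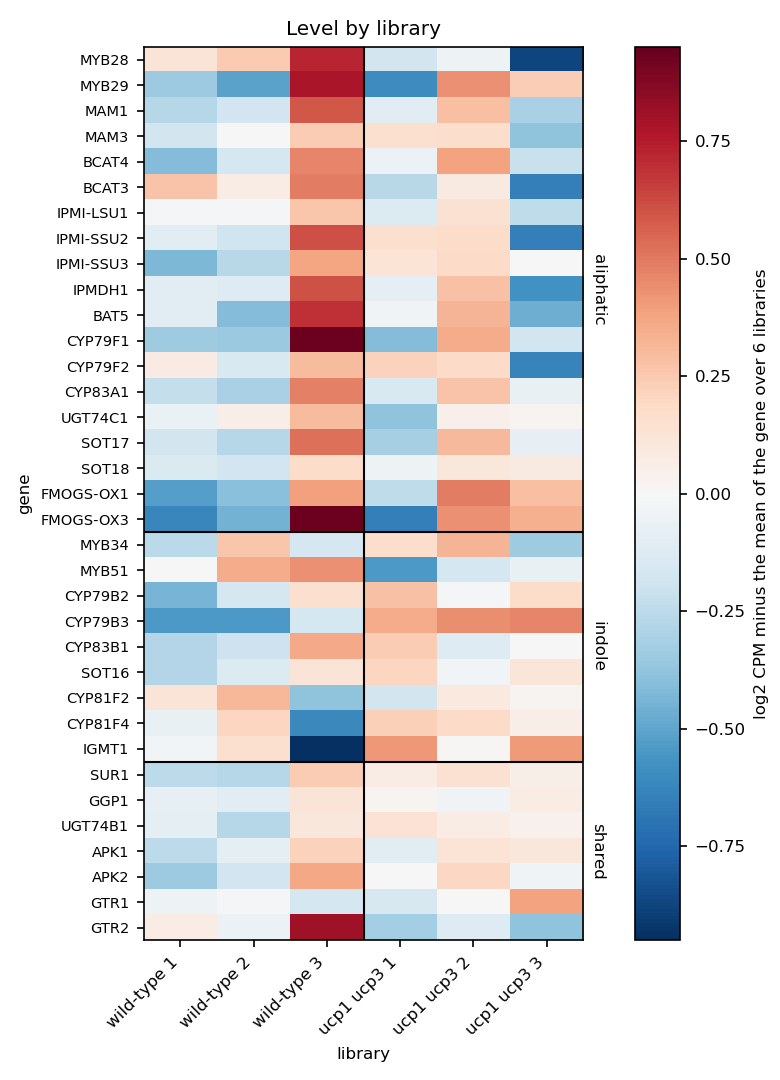
Level of each tested glucosinolate gene in each library as log2 CPM minus that gene's mean over the 6 libraries (red higher, blue lower), with lines between branches and genotypes. The column of wild-type replicate 3 is the highest for 18 of 19 aliphatic genes, while CYP79B3 is blue in the wild-type set and red in ucp1 ucp3.

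The direction of the branch comparison turned on wild-type replicate 3. With all libraries the aliphatic median log2 fold change minus the indole median was -0.264. Without wild-type replicate 3 the aliphatic median moved from -0.0257 to 0.228, the indole median from 0.238 to 0.194, and the difference to 0.0336, so its sign changed. Within libraries, the ratio of summed aliphatic to summed indole CPM was 1.77, 1.596 and 2.19 in the wild-type set. It was 1.34, 1.94 and 1.301 in mutant-labelled libraries, and the groups overlapped. Of the indole sums, CYP83B1 alone gave 365, 385 and 567 CPM in the wild-type set. In mutant-labelled libraries CYP83B1 gave 523, 407 and 441 CPM.

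**Figure D4:**
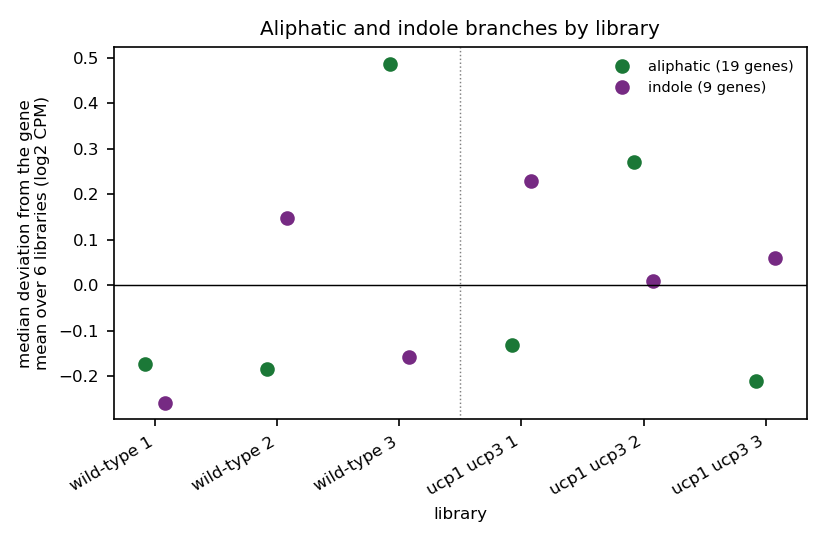
Median deviation of the 19 aliphatic and 9 indole genes from their own means over the 6 libraries, in log2 CPM, by library. Aliphatic medians are highest at 0.487 in wild-type replicate 3 and 0.272 in ucp1 ucp3 replicate 2, and indole medians do not follow them.

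Root marker levels differed between libraries too. The 8 root markers summed to 78.8, 108 and 70.2 CPM in the wild-type set and 170, 108 and 102 CPM in mutant-labelled libraries, lowest in wild-type replicate 3. All 8 had estimates above 0 (median log2 fold change 0.65), where 49.7% of all tested genes did, and 0 passed. The smallest edgeR adjusted p was 0.0782 for ESB1, a Casparian strip gene. ESB1 passed without the filter (0.833, edgeR adjusted p = 0.0361) and without ucp1 ucp3 replicate 2 (1.01, edgeR adjusted p = 0.0418). An unadjusted p under 0.05 was found for 4 of the 8, where 8.04% of all tested genes were higher at that level. Their part in the indole estimates was not tested. CYP79B3 had a log2 fold change of 0.966 without wild-type replicate 3 and of 0.862 without ucp1 ucp3 replicate 1, the libraries with the lowest and the highest root marker sum. The libraries left in each fit still differed in root marker sum, so these values do not test the part of the root markers.

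Genes that serve both branches gave 0 calls among 7. SUR1, the C-S lyase, had 105, 104 and 148 CPM in the wild-type set and 131, 138 and 130 CPM in mutant-labelled libraries (log2 fold change 0.17). UGT74B1, the glucosyltransferase, had 72.7, 64.0 and 83.4 CPM against 85.2, 81.2 and 79.4 CPM (0.16). GGP1, a peptidase that trims the glutathione conjugate, was the tightest of the core genes, with 164 ± 14.4 and 168 ± 6.27 CPM (SD, n = 3) and an interval of 0.872-fold to 1.205-fold. A 1.5-fold difference lay outside the interval in all 3 genes.

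The importers GTR1 and GTR2, of the NPF family, carry glucosinolates from the apoplast into cells and load the phloem. GTR2 had 96.4, 88.1 and 161 CPM in the wild-type set and 73.3, 84.1 and 70.4 CPM in mutant-labelled libraries. The groups were apart by a narrow gap, 84.1 against 88.1 CPM, and the log2 fold change of -0.58 ± 0.22 (SE) did not pass (edgeR adjusted p = 0.223). Without wild-type replicate 3, the highest library, its edgeR log2 fold change was -0.26. GTR1 had 53.6, 54.6 and 49.3 CPM against 49.8, 55.5 and 72.2 CPM (0.12), and 14.5% of its 31-base words lie opposite another annotated locus.

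APK1 and APK2 are the kinases that phosphorylate adenosine phosphosulfate (APS) to make the sulfate donor of the sulfotransferases. APK1 had 57.3, 63.7 and 79.0 CPM in the wild-type set and 63.1, 74.4 and 73.1 CPM in mutant-labelled libraries (log2 fold change 0.07, interval -0.22 to 0.36). APK2 had 62.2, 70.1 and 102 CPM against 79.3, 90.9 and 77.6 CPM (0.10, interval -0.26 to 0.46). Neither kinase passed, and the groups overlapped in both.

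APS is also the substrate of APS reductases, which lead sulfur to cysteine and glutathione instead, and of these APR2, which encodes the isoform with most of the activity in leaves, fell. APR2 had 102, 83.9 and 94.6 CPM in the wild-type set and 54.4, 59.5 and 40.6 CPM in mutant-labelled libraries, or 93.5 ± 9.05 and 51.5 ± 9.77 CPM (SD, n = 3). The level in mutant-labelled libraries was 0.574-fold that of wild-type (interval 0.471 to 0.700; log2 fold change -0.80, edgeR adjusted p = 0.0106). The call was lost without wild-type replicate 1 (-0.731, edgeR adjusted p = 0.0825) and kept in the other 13 alternatives. On the opposite strand of 45.1% of its 31-base words RefSeq annotates AT1G08477, which the tables do not list.

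The other reductase genes did not pass. APR3 had 132, 119 and 117 CPM in the wild-type set and 102, 91.9 and 46.9 CPM in mutant-labelled libraries (log2 fold change -0.53, edgeR adjusted p = 0.231), and APR1 had 60.4, 62.6 and 85.3 CPM against 52.6, 61.3 and 36.1 CPM (-0.39, edgeR adjusted p = 0.286). Of 7 sulfur supply genes, edgeR called 0 higher and 1, APR2, lower. At an unadjusted p under 0.05 in edgeR, 1 was higher and 3, the reductase genes APR1, APR2 and APR3, were lower. Of all tested genes, 8.04% were higher and 8.37% lower at that level. The ATP sulfurylase gene APS3 had 21.6 ± 1.47 and 41.9 ± 19.5 CPM (0.80, edgeR adjusted p = 0.159). Its level in ucp1 ucp3 replicates 1 to 3 was 27.4, 34.3 and 64.1 CPM. Without replicate 3 of ucp1 ucp3, the shallowest library, the log2 fold change was 0.546. DESeq2 called APS3 higher (0.882, adjusted p = 0.022), and the other 13 alternatives did not. GSH1, of glutathione synthesis, had a log2 fold change of 0.05.

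**Figure D5:**
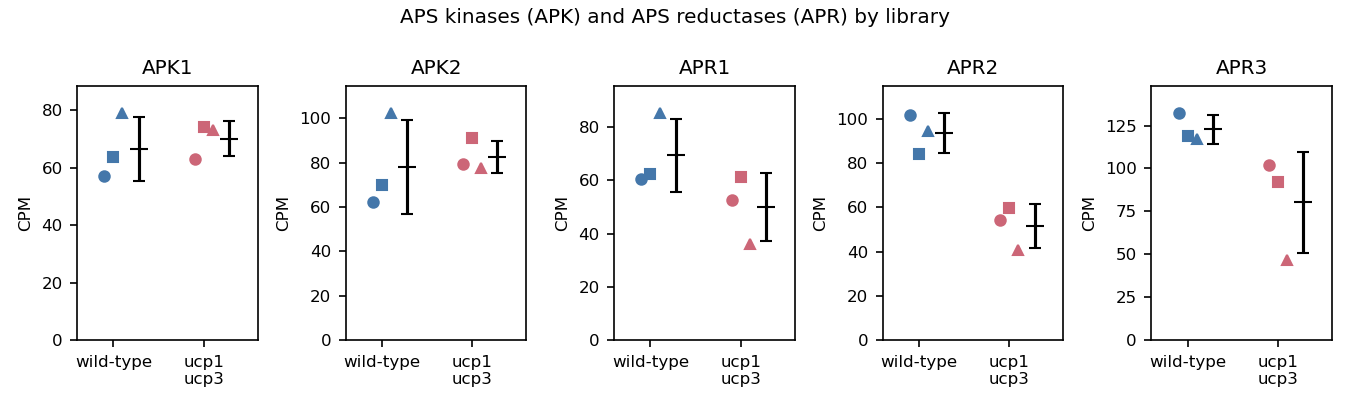
CPM by library of the APS kinases APK1 and APK2 and the APS reductases APR1, APR2 and APR3, with circles, squares and triangles for replicates 1 to 3 and bars for mean ± SD. Kinase levels overlap between genotypes, and APR2 lies at 40.6 to 59.5 CPM in mutant-labelled libraries against 83.9 to 102 CPM in wild-type.

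Of 21 other pathway genes listed, 17 were tested. In edgeR 0 were called, and their median log2 fold change was -0.08. At an unadjusted p under 0.05 in edgeR, 2 were higher and 2 lower, where 8.04% and 8.37% of all tested genes were. DESeq2 called 0 of the genes for which it gave an adjusted p. It gave none for several, GSTF11 and CYP81F3 among them. The smallest p-values were those of GSL-OH, a dioxygenase of the aliphatic side chain (838 ± 159 and 615 ± 32.3 CPM, SD, n = 3; -0.45, edgeR adjusted p = 0.115), and GSTF11, a glutathione transferase of the aliphatic core (6.67 ± 1.71 and 10.2 ± 1.75 CPM; 0.69, edgeR adjusted p = 0.165). Reads of GSTF11 are uncertain, since 93.7% of its 31-base words lie opposite AT3G03200. AOP2 was not analysed here, and AOP3, CYP79A2 and FMOGS-OX2 had too few reads to be tested.

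The bHLH factors MYC2, MYC3 and MYC4 bind with the MYB factors at glucosinolate promoters. MYC2 had 23.3, 31.03 and 19.3 CPM in the wild-type set and 40.7, 53.1 and 91.2 CPM in mutant-labelled libraries (log2 fold change 1.22, edgeR adjusted p = 0.0981), and its groups were apart. DESeq2 called it higher (1.28, adjusted p = 7.13e-05), and the other 13 alternatives did not. On the opposite strand AT1G32630 covers 98.5% of its 31-base words. Because the strand setting of the quantification is not given, the assignment of MYC2 reads is uncertain, as for CYP81F4. MYC3 and MYC4 had log2 fold changes of 0.14 and -0.13. SDI2, of the family of sulfur-deficiency-induced proteins that restrain aliphatic synthesis, had 27.6, 22.7 and 30.9 CPM against 23.8, 16.9 and 12.6 CPM (-0.54, edgeR adjusted p = 0.165). For SDI2, 23.4% of the 31-base words lie opposite AT1G04760. Of 6 regulators tested, edgeR called 0. At an unadjusted p under 0.05 in edgeR, 1 was higher and 1 lower, where 8.04% and 8.37% of all tested genes were. DESeq2 called 1, MYC2, and gave no adjusted p for MYC4, SLIM1 and IQD1.

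Around indole-3-acetaldoxime, the tryptophan supply genes ASA1 and TSB1 had log2 fold changes of 0.22 and 0.08, with edgeR adjusted p-values of 0.405 and 0.799. PAD3, which encodes the last enzyme in the synthesis of camalexin, a defence compound made from the same aldoxime, had 1.23, 1.66 and 3.02 CPM in the wild-type set and 7.77, 3.43 and 6.32 CPM in mutant-labelled libraries, from 6 to 39 reads. Its groups were apart and its log2 fold change of 1.42 did not pass (edgeR adjusted p = 0.116), except without ucp1 ucp3 replicate 2 (1.89, edgeR adjusted p = 0.0311). CYP71A13, which takes the aldoxime toward camalexin, had 0 to 3 reads per library, so its level could not be compared.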

How the data were processed

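Each deposited file lists, per the file headers, estimated counts and TPM for every transcript model; kallisto, DESeq2 and the TAIR10 build are named without versions in the submitters' processing notes. Libraries came from a stranded mRNA kit, per the labels' protocols; the strand setting and transcript index are not given in the sources used here. Estimated counts of 35386 models were summed to 27416 loci and rounded. TPM values of the authors were summed per locus and used for levels between genes only. Symbols of 26719 loci, and transcript sequences, came from RefSeq (TAIR10.1); no coordinates are printed.

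The test was that of edgeR 4.0.16, run under R 4.3.3 (default filter, TMM, robust quasi-likelihood F test, genotype as the only term), with Benjamini-Hochberg adjustment over all 17415 genes tested and calls under 0.05. CPM are counts over TMM-scaled totals. Standard errors are the log2 fold change over the square root of F, and 95% intervals use the test's degrees of freedom. The floor of 3 reads equals 0.266 to 2.53 CPM; it covers counting error only. Replicates differed beyond sampling noise (chi-square over degrees of freedom 2.41 to 6.38). The scripts were tested on simulated counts with set changes. There the edgeR test recovered 14.9% of 1.5-fold, 71.6% of 2-fold and 90.9% of 4-fold changes, and 12 of its 130 calls were false. Changed genes were drawn from all tested genes, whose median within-group SD on the log2 scale was 0.166 in wild-type and 0.216 in mutant-labelled libraries. For aliphatic genes that SD was 0.431 and 0.369, so the rates need not hold for them.

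The members and lists were chosen with earlier results of these data known, so no score over members was tested. Values per library are given for called members, the MYB regulators, both members of close gene pairs and the 2 genes of smallest p in each role; CYP83B1, BCAT4, MYC2, PAD3 and other genes beyond that rule were chosen after their values were seen. Sharing was counted as 31-base words of annotated mRNAs, and coding sequences were aligned with Biopython 1.88. The alternatives tried were DESeq2 1.42.0, a replicate block, limma 3.58.1 voom on unrounded estimates, RLE factors, library totals, a transcript length offset, no filter, a filter of 10 CPM in 3 libraries, and leaving out each library. The promoter motifs planned for description were not searched, since no promoter table was used here.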

Additional observations from a re-analysis of the deposited data

How the results depend on the processing

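Over all genes, calls were 122 higher and 45 lower with the replicate block, 234 and 150 with DESeq2, 267 and 223 without the filter, 109 and 110 with library totals, and, leaving out 1 library, 31 to 326 higher and 16 to 347 lower, against 136 and 84 as reported. Leaving out 1 library gave 0 to 1 members called higher and 0 to 1 called lower; the other 8 alternatives gave 1 and 0. Without 1 library the aliphatic median lay between -0.295 (without ucp1 ucp3 replicate 2) and 0.228, the indole median between 0.129 and 0.272, and their difference between -0.549 and 0.0336, which changed sign without wild-type replicate 3. Of 489 pairs of a member and an alternative, 51 changed sign, none of them called, 1 gained a call (BCAT3) and 1 lost it (CYP79B3). Deviations from the group means correlated at -0.0682, -0.0964 and -0.0111 between same-numbered libraries of the 2 genotypes, and at -0.0387 to 0.1 between unlike-numbered ones. No strong deviation shared by replicate number was seen, but whether libraries were prepared in pairs cannot be told from these values. With the replicate block the log2 fold change of CYP79B3 was 0.857 (edgeR adjusted p = 0.00949) and the difference between branch medians was -0.203. Depth limits low members: 12 reads of MYB34 and 8 of MYB29 stood behind their values in ucp1 ucp3 replicate 3.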
